A study of Mus musculus with 18 samples.

Results

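The 50 genes described here are interferon-stimulated genes, the antiviral program that cells switch on when type I interferon reaches its receptor. They were taken as a list of names, with no threshold on a measured value, but with earlier results of these data known. The same holds for the other gene lists below, so counts set beside the share of all genes describe these lists only. All 50 were found among the 49315 genes of the count tables. The libraries came from mouse bone marrow-derived macrophages (BMDMs), grown from bone marrow cells in medium with L929-conditioned supernatant, which carries the macrophage growth factor. BMDMs labelled WT or HDAC3 KO were left untreated, exposed to apoptotic K562 cells (ACs) or exposed to non-apoptotic K562 cells (NACs), with 3 libraries in each of the 6 groups, described as biological replicates. K562 is a human leukemia line that grows in suspension. Its cells were made apoptotic by UV-B light, left on the macrophages for 45 min, and washed off, and RNA was taken 5 h later. The HDAC3 KO mice carry floxed alleles of histone deacetylase 3 and a Cre recombinase driven by the myeloid LysM (Lyz2) promoter, on a C57BL/6J background. The controls, labelled WT, are also floxed mice, so both genotypes hold the floxed alleles.

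Type I interferons bind IFNAR1 and IFNAR2, whose kinases JAK1 and TYK2 phosphorylate transcription factors of the STAT family. STAT2 and IRF9 are parts of the resulting complex ISGF3, which binds the interferon-stimulated response element (ISRE) upstream of its target genes. Macrophages also keep a low tonic expression of these genes without infection. Histone deacetylases remove acetyl groups from histone tails, and HDAC3 does so as part of the NCoR/SMRT corepressor complexes. The comparisons below ask how the program differed between the genotypes in each state, and how it differed with contact with live or dying cells.

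The promoters show which of the genes carry this element close to their start. In the RefSeq windows of GRCm38.p6, from 250 bases before to 50 bases after each gene's start, the ISRE core GAAANNGAAA was searched on both strands (TTTCNNTTTC on the other strand). It was present in 25 of the 48 windows of the 40 genes that could be matched, 52.1%, against 3.44% of all 32851 windows. By gene, 22 of 40 held it, against 3.99% of all genes. The core TTCNNNGAA of the gamma interferon-activated site was present in 9 of the 48 windows, 18.8%, against 8.3% of all windows. Dhx58, Ifi204, Mx1, Mx2, Oas2, Parp14, Parp9, Rtp4, Usp18 and Zbp1 had no window. The 8 sequences below are the 160 bases upstream of the RefSeq start, on the gene's own strand, for 7 genes that passed in at least 1 comparison and for Isg15, a defining gene of the program that passed in none. ISRE cores are in capitals, and overlapping cores run together. Slfn8, a Schlafen gene that rose in HDAC3 KO BMDMs with NACs, held 1 core that begins at −48 (chr11:83020811-83020970, minus strand).
Slfn8: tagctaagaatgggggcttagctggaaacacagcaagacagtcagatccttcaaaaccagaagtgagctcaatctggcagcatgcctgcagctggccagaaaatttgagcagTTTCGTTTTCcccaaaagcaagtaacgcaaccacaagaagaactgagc
Ifit1, which encodes a protein that binds viral RNA lacking the host's cap methylation, held 2 cores at −104 and −85 (chr19:34640729-34640888, plus strand).
Ifit1: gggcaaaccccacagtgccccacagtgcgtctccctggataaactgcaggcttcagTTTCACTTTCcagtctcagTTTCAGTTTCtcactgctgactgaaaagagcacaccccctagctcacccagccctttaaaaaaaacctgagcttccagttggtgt
Isg15, the ubiquitin-like modifier of the response, held 3 overlapping cores at −78, −72 and −66 (chr4:156200819-156200978, minus strand).
Isg15: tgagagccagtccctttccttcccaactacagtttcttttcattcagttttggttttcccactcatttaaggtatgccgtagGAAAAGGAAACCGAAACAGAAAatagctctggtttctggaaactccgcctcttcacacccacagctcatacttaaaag
Bst2 encodes tetherin, which holds budding virions at the cell surface, and held 2 overlapping cores at −130 and −124 (chr8:71537473-71537632, minus strand).
Bst2: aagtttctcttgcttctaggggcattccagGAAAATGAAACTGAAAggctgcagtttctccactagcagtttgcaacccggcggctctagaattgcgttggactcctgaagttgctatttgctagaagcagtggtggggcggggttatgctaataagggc
Oas3, one of the oligoadenylate synthetases that activate RNase L, held 1 core at −75 (chr5:120777660-120777819, minus strand).
Oas3: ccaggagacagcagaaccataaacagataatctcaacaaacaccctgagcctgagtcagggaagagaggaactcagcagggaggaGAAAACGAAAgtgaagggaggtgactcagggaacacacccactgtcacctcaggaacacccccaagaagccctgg
The next 3 genes also passed in at least 1 comparison, and their stretches shown hold no ISRE core. Samd9l encodes an antiviral and growth-restraining protein (chr6:3399572-3399731, minus strand).
Samd9l: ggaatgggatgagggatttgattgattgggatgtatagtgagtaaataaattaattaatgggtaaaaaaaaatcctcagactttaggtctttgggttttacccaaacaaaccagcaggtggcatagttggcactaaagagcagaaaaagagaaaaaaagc
Ifit2 encodes another IFIT protein (chr19:34550534-34550693, plus strand).
Ifit2: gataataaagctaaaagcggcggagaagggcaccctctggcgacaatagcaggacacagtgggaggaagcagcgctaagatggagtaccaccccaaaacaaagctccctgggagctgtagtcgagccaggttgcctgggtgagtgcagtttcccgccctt
Irf7 encodes the transcription factor that amplifies interferon production (chr7:141266425-141266584, minus strand).
Irf7: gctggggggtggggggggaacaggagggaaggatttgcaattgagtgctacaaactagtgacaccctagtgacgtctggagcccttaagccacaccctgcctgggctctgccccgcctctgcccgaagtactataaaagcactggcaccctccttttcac

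In the coordinates of the files, which use GRCm38, the genes described most fully lie on many chromosomes. The regulators are Stat2 (ENSMUSG00000040033) at chr10:128270576-128292849 and Irf7 (ENSMUSG00000025498) at chr7:141262706-141266481. The effectors are Ifit2 (ENSMUSG00000045932) at chr19:34550694-34576419, Isg15 (ENSMUSG00000035692) at chr4:156199424-156200818, Oas3 (ENSMUSG00000032661) at chr5:120753098-120777661 and Bst2 (ENSMUSG00000046718) at chr8:71534255-71537456. The others are Parp9 (ENSMUSG00000022906) at chr16:35938470-35972605, Slfn8 (ENSMUSG00000035208) at chr11:83002158-83020810, Samd9l (ENSMUSG00000047735) at chr6:3372257-3399572 and Phf11d (ENSMUSG00000068245) at chr14:59347407-59365470. Each span runs from the first to the last annotated base of the gene.

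Library totals ran from 4704491 to 26421267 counts, and the 50 genes took 0.188 to 0.351% of them. The lowest total was that of untreated HDAC3 KO replicate 1. The summed level of 12 macrophage genes ran from 7501 to 21460 CPM (counts scaled by library size), against 2.00 to 20.8 for 10 B cell genes, 1.23 to 7.61 for 10 T and natural killer cell genes and 1.81 to 6.43 for 10 dendritic cell genes. The list of 12 granulocyte genes summed to 263 to 1336 CPM, that of 10 fibroblast genes to 5.04 to 232 CPM, that of 10 plasmacytoid dendritic cell genes to 28.0 to 195 CPM, and that of 12 erythroid genes to 13.0 to 85.7 CPM, with the defining erythroid gene Hemgn at 0 in every library. In bulk RNA, fewer cells of a type and less RNA per cell cannot be told apart. The level of Hdac3, the targeted gene, did not separate the labels. With NACs it was 4.66, 34.0 and 42.6 CPM in the libraries labelled HDAC3 KO and 48.8, 44.0 and 11.6 CPM in those labelled WT, and the log2 fold changes were −0.22 with ACs, −0.34 with NACs and 0.49 untreated (adjusted p of 0.841, 0.836 and 0.645, edgeR). These counts cover the whole gene and do not measure the floxed exon, so every genotype below is that of the label. Lyz2, the locus that drives the Cre, was 1479, 2560 and 3091 CPM in untreated HDAC3 KO libraries and 13810, 6730 and 4533 CPM in untreated WT libraries, and was lower in the former (log2 fold change −1.94, adjusted p = 0.0425, edgeR). It was 12860, 5128 and 8812 CPM in HDAC3 KO and 3680, 6388 and 1888 CPM in WT libraries with NACs, and 6150, 10470 and 4064 CPM in HDAC3 KO and 5391, 3028 and 3197 CPM in WT libraries with ACs. The genotypes overlapped in both of these states, and Lyz2 passed in neither.

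The genes spanned a wide range of levels. Compared per length, Bst2 was highest, with a median over the 18 libraries of 615 CPM per kb, followed by Oas1a at 134, Irf7 at 57.7, Ifi35 at 54.9, Rtp4 at 43.9 and Ifit3 at 39.2 CPM per kb. The lowest were Ifi44 at 0.287, Gbp7 at 0.36, Ifit1bl1 at 0.413, Trim30c at 0.618 and Mx2 at 0.650 CPM per kb. The ranges of neighbours in this order overlapped over the libraries, so the order among them is not fixed by these data: Oas1a ran from 51.9 to 285 and Irf7 from 23 to 161 CPM per kb. All 50 genes passed the filter on low counts in 10 of the 11 comparisons made, and 49 in the other. Ifit1bl1 and Trim30c rested on few counts, with a median of 17.5 and 18 per library. Mx2 is annotated as a polymorphic pseudogene in this build.

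**Figure D1:**
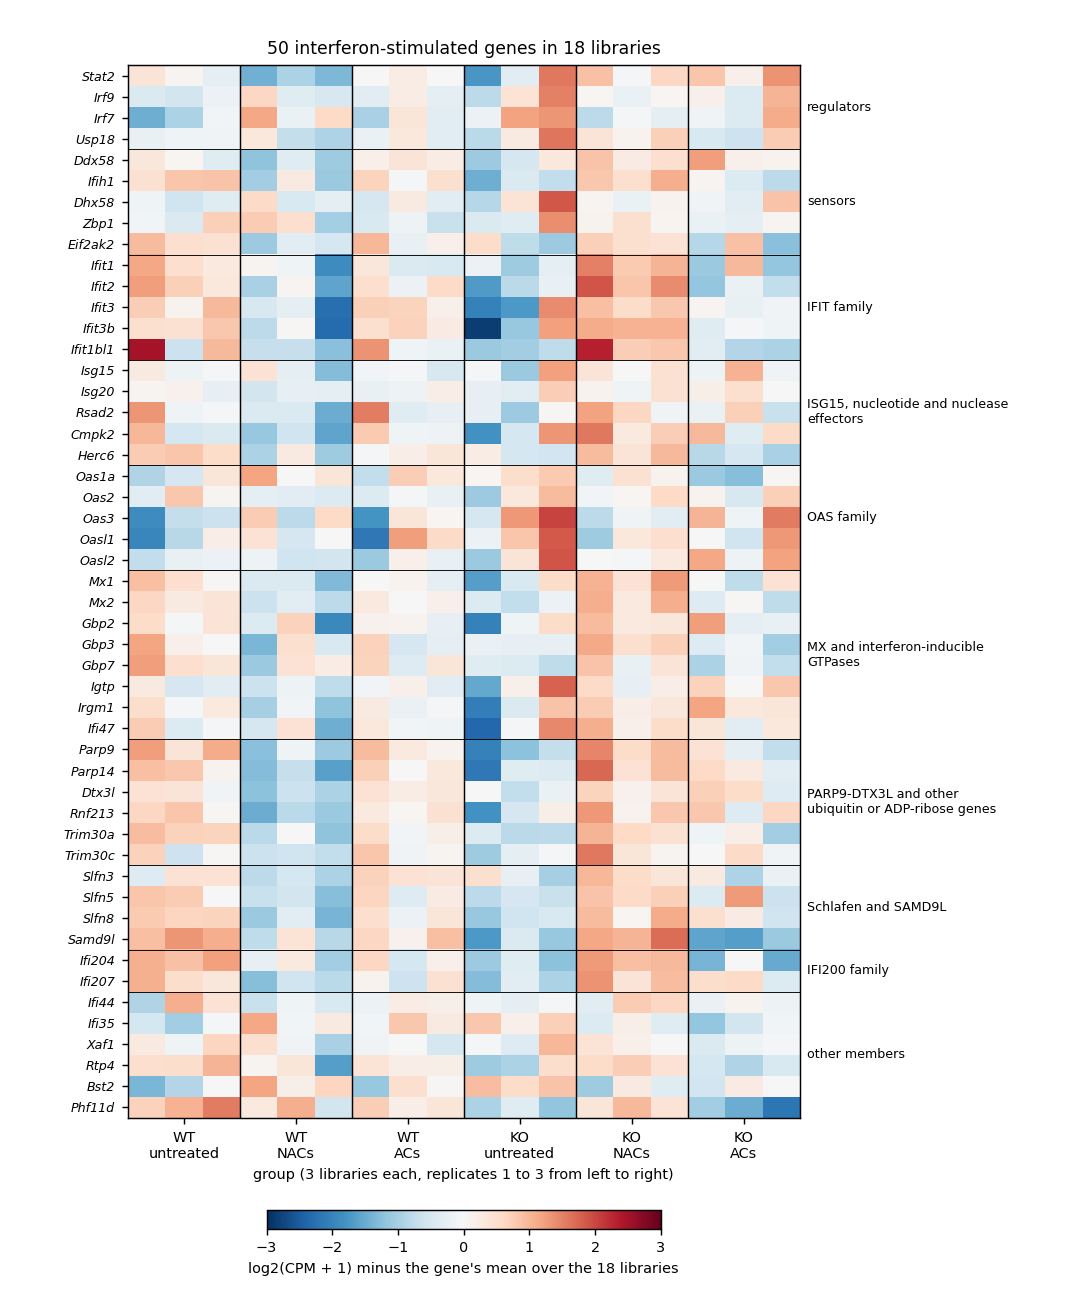
Each row is 1 of the 50 genes, grouped by role, and each column 1 of the 18 libraries. Color gives log2(CPM + 1) minus the gene's mean over the libraries. The HDAC3 KO libraries with NACs are above the mean for 41, 41 and 45 of the 50 genes, and WT replicate 3 with NACs for 6.

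In the libraries with NACs, 17 of the 50 genes rose in those labelled HDAC3 KO and none fell at an adjusted p under 0.05 (edgeR quasi-likelihood test, Benjamini-Hochberg over 11923 genes), where 0.864% of all genes passed and 0.537% rose. The median log2 fold change of the 50 was 1.35, against −0.0031 over all genes tested, and 43 of 50 values were above 0. The HDAC3 KO and WT libraries did not overlap for 32 of the 50, all higher in HDAC3 KO, against 27.0% of all genes. The 17 genes were Ifit1bl1, Trim30c, Parp14, Slfn3, Ifit2, Cmpk2, Mx2, Rnf213, Ifi207, Parp9, Mx1, Stat2, Slfn8, Samd9l, Slfn5, Ddx58 and Dtx3l. By group, 5 of the 6 ubiquitin and ADP-ribose genes passed, as did all 4 of the Schlafen genes and Samd9l and none of the 5 OAS genes, and the groups were not tested against each other. The share of counts from genes of the mitochondrial genome was 0.409 to 0.577% in HDAC3 KO and 0.294 to 0.404% in WT libraries with NACs, and 0.272 to 0.434% in HDAC3 KO and 0.496 to 0.621% in WT libraries without cells. With ACs it was 0.493 to 1.19% in HDAC3 KO and 0.341 to 0.48% in WT libraries. The genotypes did not overlap in any of the 3 states. The part of this share in the results was not tested.

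In untreated BMDMs more of the 50 genes were lower than higher in the libraries labelled HDAC3 KO. Of the 50, 10 fell and 1 rose, where 11.6% of all 12101 genes passed and 8.56% fell. The median log2 fold change was −0.74, against 0.06 over all genes. The libraries did not overlap for 20 of the 50, 3 higher and 17 lower, against 40.9% of all genes, so that the count of separated genes was at the background. The 10 that fell were Ifit1bl1, Parp9, Samd9l, Phf11d, Ifi204, Ifit2, Ifih1, Ifi207, Trim30a and Slfn8, and the 1 that rose was Oas3.

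With ACs, the state the study set out to compare, 2 of the 50 genes differed. Samd9l and Phf11d fell in HDAC3 KO BMDMs, where 3.75% of all 12304 genes passed and 2.96% fell, so the 2 of 50 were near the background. The median of the 50 was −0.07, against −0.01 over all genes, and its sign changed with the scaling. The libraries did not overlap for 11 of the 50, 1 higher and 10 lower, against 28.3% of all genes.

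**Figure D2:**
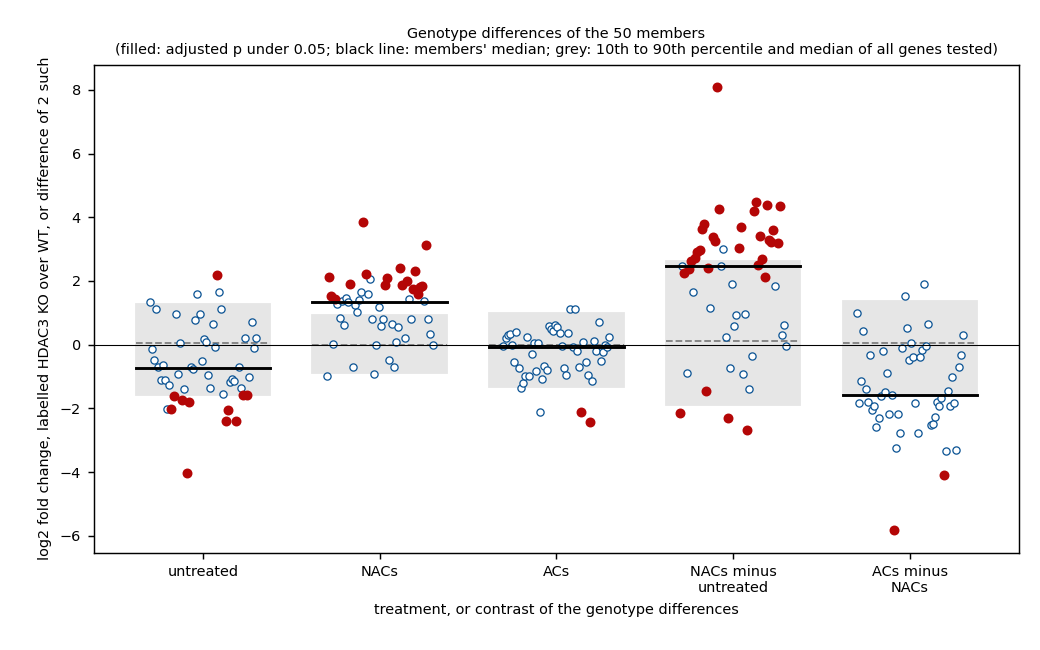
Each circle is the log2 fold change of 1 of the 50 genes, libraries labelled HDAC3 KO over WT, in untreated, NAC-exposed and AC-exposed BMDMs, followed by the difference between pairs of these. Filled circles passed an adjusted p of 0.05, black lines are the genes' medians and grey bands span the 10th to 90th percentile of all genes tested. The medians are −0.74 untreated, 1.35 with NACs and −0.07 with ACs.

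The counts changed with single libraries, with the fit and scaling, and with an offset for GC content. Here and in the comparisons below, the share of all genes is given for the offset, but not for left-out libraries or other fits. A change in those counts therefore cannot be told apart from a change over all genes. In 1 fit over all 18 libraries 0 of the 50 passed with NACs. With library totals alone 7 passed with NACs, and untreated more passed than in the main fit, none of them higher. With NACs, 0 of the 50 passed without WT replicate 1, 1 without WT replicate 3, 10 without HDAC3 KO replicate 2 and 35 without WT replicate 2. Untreated, 0 passed without any one of the WT replicates 1, 2 and 3 or HDAC3 KO replicate 3, 3 without HDAC3 KO replicate 2, and 26 without HDAC3 KO replicate 1. With ACs, 0 passed without HDAC3 KO replicate 1 and 7 without HDAC3 KO replicate 2. When each library was corrected for trends with GC content and gene length, 0 of the 50 passed with NACs (0.0084% of all genes), 0 untreated (0.0331%) and 4 with ACs (10.6%). The directions of the medians with NACs and untreated were kept under every alternative tried: 0.98 to 1.80 with NACs and −1.23 to −0.25 untreated.

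The direct test asked whether the genotype difference with NACs differed from that without cells. It did for 31 of the 50 genes, 27 with a higher and 4 with a lower difference with NACs, where 34.8% of all 13005 genes passed and 22.1% were higher. The median of the 50 was 2.47 on the log2 scale, against 0.12 over all genes, and 40 of 50 values were above 0. The 4 lower genes were Oas3, Irf7, Bst2 and Ifi35. Leaving out any 1 library gave 25 to 34 genes, and under the GC and length offset 19 genes passed, all higher, where 15.5% of all genes passed. Isg20 and Stat2 were among these 19 and not among the 31. The 4 lower genes did not pass with the offset. Neither did Ddx58, Eif2ak2, Gbp3, Gbp7, Herc6, Ifi44, Phf11d, Rsad2, Slfn3 and Trim30c. This test uses both untreated and NAC libraries, so it shares them with the comparisons above and below. The difference between ACs and NACs passed for 2 genes, Ifit1bl1 and Samd9l, both lower with ACs, where 0.0765% of all 13076 genes passed and 0.0459% were lower. That count was 0 without WT replicate 1 or 3 or HDAC3 KO replicate 3 with NACs or HDAC3 KO replicate 1 with ACs, 20 without WT replicate 2 with NACs, 17 without HDAC3 KO replicate 2 with ACs, 7 without WT replicate 2 with ACs, and 1 without WT replicate 1 or HDAC3 KO replicate 3 with ACs or HDAC3 KO replicates 1 or 2 with NACs. With the GC and length offset 9 genes passed (1.98% of all).

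Among the regulators of the response, Stat2, which encodes a subunit of ISGF3, was 64.7, 33.6 and 54.0 CPM in HDAC3 KO libraries with NACs and 12.3, 17.6 and 13.2 CPM in WT libraries with NACs. Every HDAC3 KO library lay above every WT library, and Stat2 rose (log2 fold change 1.85, SE 0.35, adjusted p = 0.00897, edgeR). Its untreated levels were 9.81, 27.9 and 106 CPM in HDAC3 KO and 46.1, 37.3 and 28.6 CPM in WT libraries, and these overlapped. Irf7 went the other way in the 2 states. It was 542, 209.8 and 366 CPM in WT and 139, 234 and 201 CPM in HDAC3 KO libraries with NACs, and 86.7, 125 and 228 CPM in WT and 213, 555 and 609 CPM in HDAC3 KO libraries without cells. Neither difference passed alone (log2 fold changes −0.93 and 1.58, adjusted p of 0.145 and 0.0546, edgeR), and their difference did (log2 difference −2.29, SE 0.61, adjusted p = 0.00799, edgeR). Irf9, the DNA-binding partner in ISGF3, and Usp18, the protease that removes ISG15 and dampens receptor signaling, passed in none of the 11 comparisons. With NACs their log2 fold changes were −0.01 and 0.81. In untreated HDAC3 KO libraries both were widest apart: Irf9 was 40.2, 93.8 and 202 CPM and Usp18 22.4, 47.9 and 122 CPM, with replicate 3 highest.

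The sensors of viral RNA and DNA were led by Ifih1 and Ddx58, which encode MDA5 and RIG-I. Ddx58 was 29.2, 18.7 and 22.5 CPM in HDAC3 KO and 6.17, 11.8 and 6.90 CPM in WT libraries with NACs and rose (log2 fold change 1.53, SE 0.37, adjusted p = 0.0443, edgeR). Ifih1 was 3.77, 8.63 and 6.91 CPM in untreated HDAC3 KO and 16.8, 22.4 and 22.5 CPM in untreated WT libraries and fell (log2 fold change −1.72, SE 0.45, adjusted p = 0.0344, edgeR). For Ifih1 the groups were apart in both states, and its genotype difference was higher with NACs than without cells (log2 difference 3.39, SE 0.64, adjusted p = 0.00122, edgeR). Eif2ak2, which encodes the RNA-activated kinase PKR, showed the same difference (log2 difference 2.62, SE 0.63, adjusted p = 0.00435, edgeR) on levels of 21.8, 18.6 and 17.8 CPM in HDAC3 KO and 5.60, 9.99 and 8.71 CPM in WT libraries with NACs. Dhx58, which encodes LGP2, and Zbp1, the Z-nucleic acid sensor, passed in no comparison. Their log2 fold changes with NACs were 0.02 and −0.00.

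The IFIT genes encode tetratricopeptide proteins that bind foreign RNA or block its translation. Ifit2 was 71.1, 33.9 and 51.2 CPM in HDAC3 KO and 8.85, 19.6 and 5.47 CPM in WT libraries with NACs, and 5.03, 10.1 and 15.6 CPM in HDAC3 KO and 45.2, 31.0 and 23.4 CPM in WT libraries without cells. The genotypes were thus apart in both states and in opposite directions. Ifit2 rose with NACs (log2 fold change 2.23, SE 0.43, adjusted p = 0.0197, edgeR) and fell untreated (log2 fold change −1.79, SE 0.49, adjusted p = 0.0381, edgeR), and its genotype difference was higher with NACs (log2 difference 4.26, SE 0.72, adjusted p = 0.000808, edgeR). Ifit1 was 54.2, 32.4 and 38.0 CPM in HDAC3 KO and 19.5, 16.7 and 4.23 CPM in WT libraries with NACs. It passed neither test of genotype with NACs or untreated (adjusted p of 0.0711 and 0.0547, edgeR) and passed the test of their difference (log2 difference 3.26, SE 0.69, adjusted p = 0.00216, edgeR). Ifit3 and Ifit3b, neighbouring near-identical copies whose reads could be split between them, ran together, with r = 0.953 over the 18 libraries. Ifit3 was 14.6, 18.1 and 169 CPM in untreated HDAC3 KO libraries, so that replicate 3 stood far above the others, and 105, 67.3 and 124 CPM in WT libraries. Ifit1bl1, with 270, 35 and 95 counts in HDAC3 KO and 6, 9 and 2 counts in WT libraries with NACs, had the largest fitted difference of the 50 with NACs (log2 fold change 3.84, SE 0.66, adjusted p = 0.00858, edgeR). Untreated, its counts were 1, 6 and 12 in HDAC3 KO and 214, 14 and 79 in WT libraries (log2 fold change −4.04, SE 0.93, adjusted p = 0.0285, edgeR), and it passed in none of the fits that left out 1 library.

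Of Isg15 and the enzymes of nucleotide and RNA metabolism, 1 gene rose with NACs. Isg15 was 30.5, 23.4 and 32.4 CPM in HDAC3 KO and 31.9, 19.0 and 8.83 CPM in WT libraries with NACs, and 22.6, 10.2 and 56.2 CPM in HDAC3 KO and 28.3, 20.8 and 22.1 CPM in WT libraries without cells. The groups overlapped in both states, and Isg15 passed in none of the 11 comparisons, as did Isg20, which encodes an RNA exonuclease and had 0.663 to 2.35 CPM per kb. Rsad2 encodes viperin, which makes a chain-terminating nucleotide, and Cmpk2, beside it in the genome, supplies nucleotides in mitochondria. Cmpk2 was 103, 41.0 and 56.6 CPM in HDAC3 KO and 14.8, 21.8 and 10.5 CPM in WT libraries with NACs and rose (log2 fold change 2.13, SE 0.38, adjusted p = 0.00858, edgeR). Rsad2 was 152, 101 and 61.4 CPM in HDAC3 KO and 48.3, 48.2 and 22.7 CPM in WT libraries, apart but short of the threshold (log2 fold change 1.44, SE 0.37, adjusted p = 0.0605, edgeR). Herc6, the mouse ligase that attaches ISG15, passed the difference between NACs and untreated (log2 difference 2.99, SE 0.69, adjusted p = 0.00355, edgeR), and 13.7% of its exon bases lie within another annotated gene.

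Among the OAS genes, which encode enzymes and related proteins of the response to double-stranded RNA, Oas3 alone passed in any comparison. None of Oas1a, Oas2, Oas3, Oasl1 and Oasl2 rose or fell with genotype in the libraries with NACs, where their log2 fold changes ran from −0.71 to 0.65. Oas3 was 38.0, 135 and 224 CPM in untreated HDAC3 KO and 13.8, 32.7 and 34.3 CPM in untreated WT libraries. Every HDAC3 KO library was above every WT library, and Oas3 was the 1 gene of the 50 that rose there (log2 fold change 2.20, SE 0.59, adjusted p = 0.0366, edgeR). With NACs the levels were 30.8, 50.4 and 42.7 CPM in HDAC3 KO and 93.0, 30.9 and 82.3 CPM in WT libraries, which overlapped. Its genotype difference was lower with NACs than untreated (log2 difference −2.68, SE 0.74, adjusted p = 0.0111, edgeR). Oas1a ran between 97.9 and 538 CPM over the 18 libraries and passed in no comparison, and Oas2, Oasl1 and Oasl2 passed in none either. Oasl1 had its lowest levels, 6.10 and 5.24 CPM, in WT replicate 1 untreated and with ACs. With the GC and length offset Oas3 passed neither in untreated libraries (log2 fold change 1.37, adjusted p = 0.173, edgeR) nor in the difference (log2 difference −1.66, adjusted p = 0.0694, edgeR).

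The dynamin-like Mx genes and the guanylate-binding and immunity-related GTPases act on viral nucleocapsids and on the membranes around intracellular microbes. Mx1 was 18.4, 11.8 and 21.9 CPM in HDAC3 KO and 5.94, 6.03 and 2.80 CPM in WT libraries with NACs, and Mx2 6.06, 3.09 and 6.10 CPM in HDAC3 KO and 1.12, 1.6 and 0.933 CPM in WT libraries. All 3 HDAC3 KO libraries were above all WT libraries for both, and both rose (log2 fold change 1.87, SE 0.40, adjusted p = 0.0244, edgeR for Mx1, log2 fold change 2.10, SE 0.51, adjusted p = 0.0443, edgeR for Mx2). None of the other 6 genes of this group, Gbp2, Gbp3, Gbp7, Igtp, Irgm1 and Ifi47, passed with genotype in any state. Their log2 fold changes with NACs ran from 0.61 for Gbp7 to 1.36 for Gbp3. Gbp3 and Gbp7 passed the difference between NACs and untreated (log2 difference 2.72, SE 0.82, adjusted p = 0.0152, edgeR for Gbp3, log2 difference 2.91, SE 0.92, adjusted p = 0.019, edgeR for Gbp7), at levels of 0.560 to 8.09 and 0.336 to 5.83 CPM. Igtp, Irgm1, Ifi47 and Gbp2 passed in none of the 11 comparisons. In untreated HDAC3 KO libraries Igtp was 4.78, 17.7 and 56.4 CPM, Irgm1 5.79, 20.2 and 50.5 CPM and Ifi47 6.04, 33.4 and 97.2 CPM, with replicate 1 lowest and replicate 3 highest for each.

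Of the 6 ubiquitin and ADP-ribose genes, 5 rose with NACs. Parp9 and Dtx3l encode the partners of a complex with ubiquitin ligase and ADP-ribosylation activity. Parp9 was 62.0, 32.3 and 42.5 CPM in HDAC3 KO and 8.52, 19.7 and 9.70 CPM in WT libraries with NACs, and 4.53, 8.63 and 12.9 CPM in HDAC3 KO and 52.9, 28.5 and 48.0 CPM in WT libraries without cells. The genotypes were apart in both states, higher in HDAC3 KO with NACs (log2 fold change 1.88, SE 0.38, adjusted p = 0.0186, edgeR) and lower untreated (log2 fold change −2.38, SE 0.48, adjusted p = 0.0218, edgeR). Its difference between the states was the largest after that of Ifit1bl1 (log2 difference 4.49, SE 0.64, adjusted p = 0.000636, edgeR), and it kept an adjusted p of 0.00415 with the GC and length offset (log2 difference 3.95, edgeR). Dtx3l rose with NACs (log2 fold change 1.44, SE 0.35, adjusted p = 0.0443, edgeR). It shares 458 exon bases with Parp9 on the opposite strand, and whether the counting used strand is not stated. Parp14, a mono-ADP-ribosyltransferase, was 116, 47.1 and 66.8 CPM in HDAC3 KO and 13.4, 20.9 and 10.5 CPM in WT libraries with NACs and had the lowest adjusted p of the 50 there (log2 fold change 2.40, SE 0.38, adjusted p = 0.00541, edgeR). Rnf213, a giant ubiquitin ligase with antimicrobial activity, was 192, 82.7 and 136 CPM in HDAC3 KO and 26.8, 43.5 and 35.4 CPM in WT libraries and rose (log2 fold change 1.99, SE 0.36, adjusted p = 0.00858, edgeR). Trim30a, a TRIM ligase, was 21.6, 16.1 and 16.6 CPM in HDAC3 KO and 56.8, 47.8 and 46.9 CPM in WT libraries without cells and fell there (log2 fold change −1.59, SE 0.40, adjusted p = 0.0311, edgeR). Trim30c, with 114, 17 and 31 counts in HDAC3 KO and 3, 5 and 4 in WT libraries with NACs, rose with them (log2 fold change 3.12, SE 0.72, adjusted p = 0.0438, edgeR) and had 0 counts in untreated HDAC3 KO replicate 1.

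**Figure D3:**
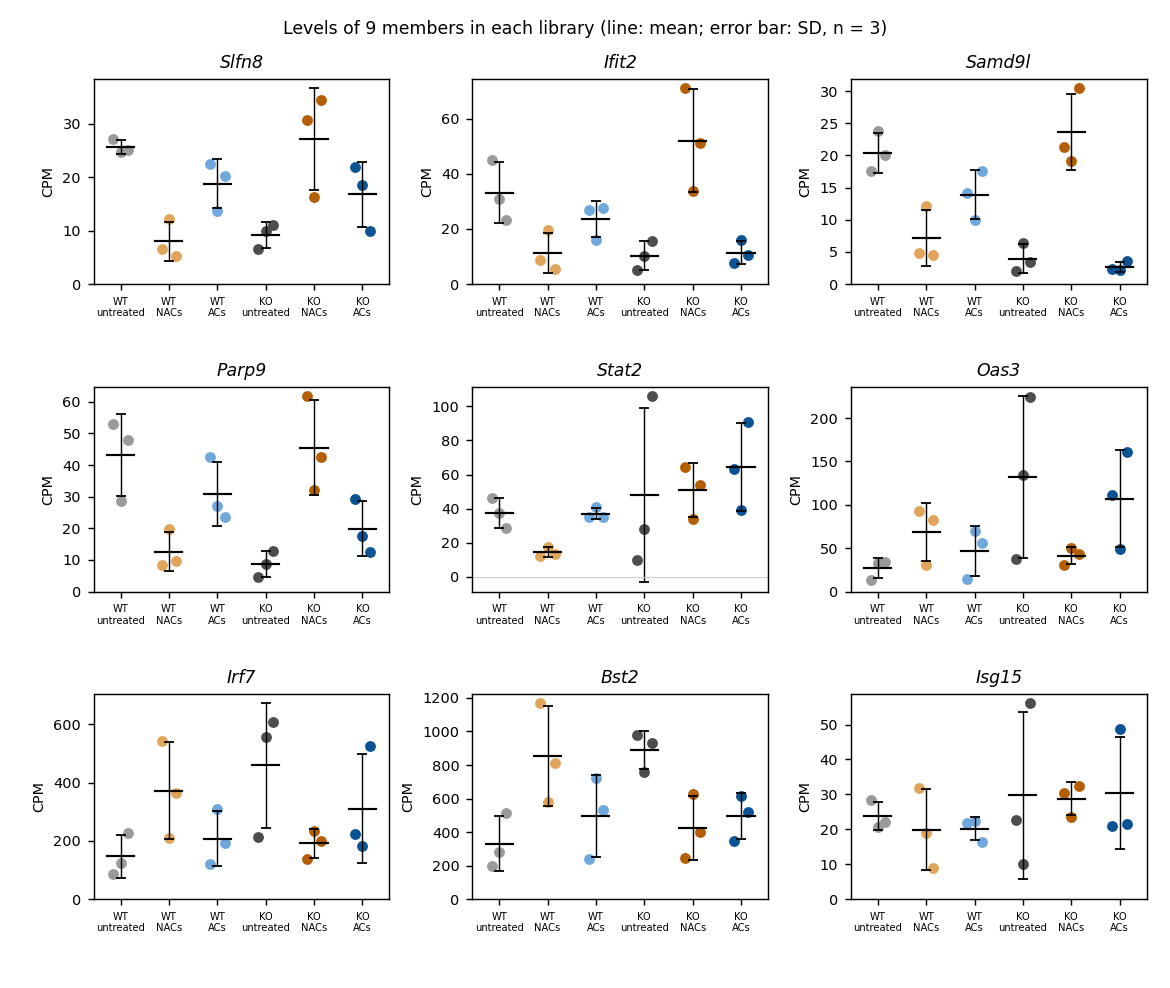
Each panel shows 1 gene, with its level in CPM in each of the 3 libraries of the 6 groups as points, the mean as a line and the SD as an error bar. Slfn8, Ifit2, Samd9l, Parp9 and Stat2 are higher in every HDAC3 KO than in every WT library with NACs. For Oas3, Irf7 and Bst2 the mean with NACs is higher in WT libraries, and for Isg15 the genotypes overlap in every state.

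The Schlafen genes encode proteins that cleave or bind tRNA and restrain growth and viral translation, and Samd9l encodes a protein of related antiviral function. Slfn8 was 30.7, 16.3 and 34.6 CPM in HDAC3 KO and 6.61, 12.1 and 5.29 CPM in WT libraries with NACs, and 6.54, 9.96 and 11.0 CPM in HDAC3 KO and 27.2, 24.8 and 25.1 CPM in WT libraries without cells. It rose with NACs (log2 fold change 1.80, SE 0.39, adjusted p = 0.0293, edgeR) and fell untreated (log2 fold change −1.57, SE 0.41, adjusted p = 0.0345, edgeR). Samd9l was the gene of the 50 with the most calls, 8 of the 11 comparisons, and the 1 gene that passed with genotype in all 3 states. With ACs it was 2.31, 2.15 and 3.58 CPM in HDAC3 KO and 14.2, 9.92 and 17.6 CPM in WT libraries (log2 fold change −2.43, SE 0.47, adjusted p = 0.0159, edgeR). Untreated it was 2.01, 6.39 and 3.48 CPM in HDAC3 KO and 17.5, 23.7 and 20.1 CPM in WT libraries (log2 fold change −2.38, SE 0.50, adjusted p = 0.0227, edgeR). Both of these were falls, and with NACs, at 21.3, 19.2 and 30.4 CPM in HDAC3 KO and 4.82, 12.2 and 4.54 CPM in WT libraries, it rose (log2 fold change 1.74, SE 0.40, adjusted p = 0.0438, edgeR). The call with ACs was kept in 5 of the 6 fits that left out 1 library, and those with NACs and untreated in 2 of 6 each. With the GC and length offset Samd9l passed with ACs (adjusted p = 0.0179, edgeR). It then passed neither with NACs nor untreated (adjusted p of 0.143 and 0.189, edgeR). Slfn5 and Slfn3 rose with NACs as well (log2 fold change 1.59, SE 0.33, adjusted p = 0.02, edgeR for Slfn5, log2 fold change 2.32, SE 0.58, adjusted p = 0.0474, edgeR for Slfn3). Slfn3 lay at 0.448 to 4.71 CPM over the libraries, and 8.84% of the exon bases of Slfn5 are shared with an antisense gene.

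The IFI200 genes Ifi204 and Ifi207 encode nuclear proteins of the family that includes the DNA sensors. Ifi204 was 16.6, 28.1 and 15.0 CPM in untreated HDAC3 KO and 77.9, 68.1 and 86.8 CPM in untreated WT libraries and fell (log2 fold change −2.02, SE 0.44, adjusted p = 0.0238, edgeR). Ifi207 was 65.2, 33.4 and 48.3 CPM in HDAC3 KO and 9.75, 16.3 and 14.0 CPM in WT libraries with NACs and rose (log2 fold change 1.91, SE 0.35, adjusted p = 0.00858, edgeR), and untreated it fell (log2 fold change −1.61, SE 0.46, adjusted p = 0.0426, edgeR). For both, the genotype difference, HDAC3 KO over WT, was higher with NACs than untreated (log2 difference 3.63, SE 0.56, adjusted p = 0.000655, edgeR for Ifi204, log2 difference 3.79, SE 0.59, adjusted p = 0.000655, edgeR for Ifi207). They are close paralogs whose reads could be split between them.

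Of the remaining 6 genes, Phf11d, a PHD-finger gene, was the second of the 2 that fell with ACs, at 10.9, 7.83 and 4.46 CPM in HDAC3 KO and 39.7, 27.1 and 30.4 CPM in WT libraries (log2 fold change −2.11, SE 0.45, adjusted p = 0.024, edgeR). It fell untreated as well (log2 fold change −2.04, SE 0.45, adjusted p = 0.0246, edgeR) and did not pass with NACs (log2 fold change 0.21, SE 0.37, adjusted p = 0.723, edgeR). Bst2 had the highest counts of the 50. It was 1173, 579 and 812 CPM in WT and 246, 627 and 402 CPM in HDAC3 KO libraries with NACs, and 198, 279 and 515 CPM in WT and 980.5, 760.1 and 929.6 CPM in HDAC3 KO libraries without cells. Its genotype difference was lower with NACs (log2 difference −2.14, SE 0.56, adjusted p = 0.00731, edgeR), as was that of Ifi35, a signaling adaptor (log2 difference −1.46, SE 0.52, adjusted p = 0.0346, edgeR), while that of Rtp4, a transporter-like protein, was higher (log2 difference 2.12, SE 0.66, adjusted p = 0.018, edgeR). With the GC and length offset neither Bst2 nor Ifi35 passed this test (log2 differences −0.89 and −0.44, adjusted p of 0.177 and 0.508, edgeR). Rtp4 did (log2 difference 2.08, adjusted p = 0.0281, edgeR). Ifi35 and Rtp4 share 16.8 and 13.9% of their exon bases with other genes. Ifi44 passed only this difference, and narrowly (log2 difference 2.40, SE 0.92, adjusted p = 0.0466, edgeR), on 7 counts in its lowest library. Xaf1, which encodes an antagonist of XIAP, passed in none of the comparisons.

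Within WT BMDMs, 21 of 49 tested genes fell and 3 rose with NACs against untreated cells, where 8.52% of all 11912 genes passed and 4.33% fell. The median log2 fold change was −1.26, against −0.10 over all genes. Parp14 had the lowest adjusted p and fell from 64.6, 60.5 and 36.8 CPM untreated to 13.4, 20.9 and 10.5 CPM with NACs (log2 fold change −1.93, SE 0.39, adjusted p = 0.00438, edgeR). Parp9, Rnf213, Slfn8 and Ifi207 followed, with adjusted p of 0.00775 to 0.01 (edgeR). All 5 tested ubiquitin and ADP-ribose genes fell, as did 4 IFIT genes, and the 3 that rose were Oas3, Irf7 and Bst2 (log2 fold change 1.33, SE 0.43, adjusted p = 0.0427, edgeR for Bst2). Of the marker lists, 1 of 3 tested B cell genes, Cd79b, rose in the same comparison, with 2 values above 0. The part of Cd79b in the result was not tested. The count of interferon-stimulated genes was 1 without WT replicate 1, untreated or with NACs, 3 without untreated replicate 2 or NAC replicate 3, and 34 without NAC replicate 2. With the GC and length offset it was 0 (0.0% of all genes), with a median of −0.78.

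Within HDAC3 KO BMDMs, 13 of the 50 genes rose with the same contact and none fell, where 6.54% of all 12143 genes passed and 6.2% rose. The median was 1.06, against −0.03 over all genes. Ifit2, 5.03, 10.1 and 15.6 CPM untreated, was 71.1, 33.9 and 51.2 CPM with NACs (log2 fold change 2.53, SE 0.49, adjusted p = 0.0353, edgeR). Parp9 rose by a log2 fold change of 2.57, Samd9l by 2.71, Ifi204 by 2.12 and Ifih1 by 1.94, with adjusted p of 0.0353 to 0.0368 (edgeR). The 13 were these 5 with Ifit1bl1, Parp14, Ifi207, Ifit1, Slfn8, Phf11d, Trim30a and Slfn5. Of the marker lists, 2 of 12 macrophage genes, Lyz2 and Mrc1, rose in the same comparison. The 12 had a median of 0.0013, with 6 values above 0. Of 8 tested fibroblast genes Thy1 fell, with a median of −0.84 and 3 values above 0. The part of these genes in the result was not tested. The count of interferon-stimulated genes was 28 without untreated replicate 1 and 0 without any other single library, and 0 with the GC and length offset (0.0% of all genes).

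ACs against NACs gave medians of opposite sign in the genotypes. In HDAC3 KO BMDMs 10 genes fell and 1 rose with ACs, where 7.38% of all 12244 genes passed and 4.73% fell, and the median was −0.61, against 0.09 over all genes. Samd9l had the lowest adjusted p, at 2.31, 2.15 and 3.58 CPM with ACs and 21.3, 19.2 and 30.4 CPM with NACs (log2 fold change −3.14, SE 0.44, adjusted p = 0.000331, edgeR). Phf11d, Ifit2, Ifi204 and Herc6 also fell, with log2 fold changes of −2.21, −2.18, −1.88 and −1.83, and Ifit1bl1, Mx2, Gbp3, Ifit3b and Rtp4 were the other 5. The 1 that rose was again Oas3 (log2 fold change 1.38, SE 0.41, adjusted p = 0.0382, edgeR). With the GC and length offset 9 of the 50 passed, all lower (5.56% of all genes), with Parp9 among them and without Oas3. Of 8 tested fibroblast genes all had values above 0 in the same comparison, with a median of 1.76, and Col1a2, Col3a1 and Thy1 rose. The summed fibroblast list was 83.2 to 232 CPM with ACs and 8.25 to 47.1 CPM with NACs in HDAC3 KO libraries. Ctss of the macrophage list and Ltf of the granulocyte list also rose, and with the GC and length offset Ctss alone of these 5 passed. The macrophage list had a median of 0.20, with 9 of 12 values above 0. The granulocyte list had a median of −0.57, with 4 of 12 above 0. The part of these lists in the result was not tested. The count of interferon-stimulated genes was 0 without AC replicate 1, 3 without AC replicate 3, 20 without AC replicate 2 and 6 without any one of the 3 NAC libraries. In WT BMDMs 0 of the 50 passed (0.0% of all genes, edgeR), with 19 at an unadjusted p under 0.05 beside 493 of 11844 genes, and 0 by DESeq2. The median there was 0.76, against 0.05 over all genes, and 41 of 50 values were above 0. The WT libraries did not overlap for 19 of the 50, all higher with ACs, against 10.4% of all genes.

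ACs against untreated cells gave 0 of the 50 in either genotype (0.0% of all genes in both, edgeR). DESeq2 gave 0 of 50 in WT BMDMs, and in HDAC3 KO BMDMs it gave an adjusted p to 2 of the 50, Bst2 and Irf7, neither under 0.05. In WT BMDMs 5 of the 50 and 1551 of 12199 genes had an unadjusted p under 0.05, and in HDAC3 KO BMDMs 6 of the 50 and 1761 of 12136 genes did. The medians were −0.35 in WT and 0.19 in HDAC3 KO BMDMs, against −0.11 and 0.10 over all genes. The sign of the HDAC3 KO median changed with the processing. It was −0.06 with the GC and length offset and ran from there to 0.65 over the alternatives. The lowest values in WT BMDMs were those of Ifit1bl1 at −1.23, Ifi204 at −1.0 and Ifit1 at −0.96, and the highest those of Oasl1 at 1.03, Ifi35 at 0.79 and Oas3 at 0.70. In HDAC3 KO BMDMs they ran from −1.03 for Oas1a, −1.01 for Ifi35 and −0.72 for Bst2 to 1.2 for Trim30c, 1.30 for Ifi207 and 1.33 for Parp9.

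**Figure D4:**
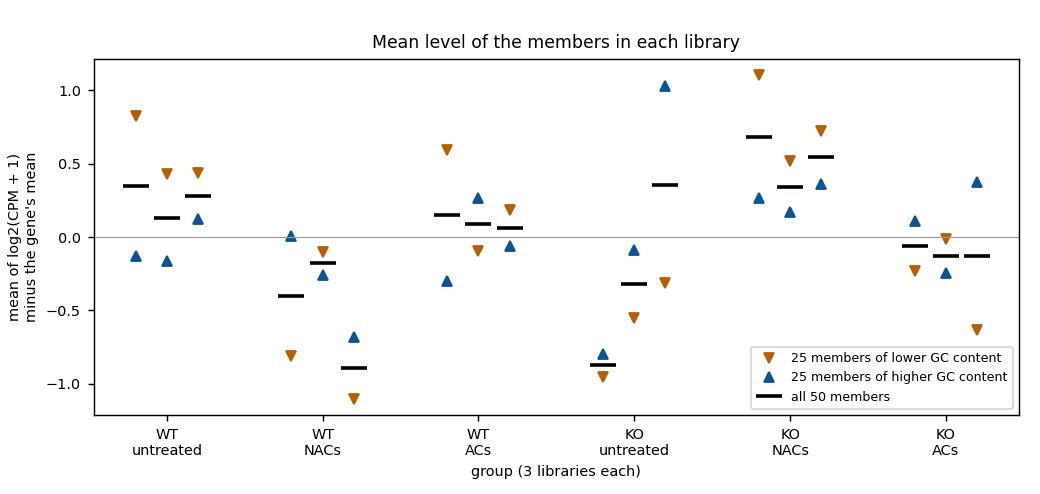
For each library, in its group, the mean over genes of log2(CPM + 1) minus the gene's own mean is shown for all 50 genes (bars) and for the 25 genes of lower and the 25 of higher GC content (triangles). All 50 together lie at 0.34 to 0.68 in the HDAC3 KO libraries with NACs and at −0.89 to −0.18 in the WT libraries with NACs.

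The level of the program varied between libraries of the same group. The mean over the 50 genes, as log2(CPM + 1) relative to each gene's own mean, was 0.68, 0.34 and 0.54 in the HDAC3 KO libraries with NACs and −0.40, −0.18 and −0.89 in the WT libraries with NACs. In the untreated HDAC3 KO libraries it was −0.87, −0.32 and 0.36, the widest group. Replicate 3 of that group held 28 genes above their own mean, replicate 1 held 7. The median correlation between 2 of the 50 genes over the 18 libraries was 0.37 in 1225 pairs, against −0.00532 over all pairs of genes kept, and after removal of group means it was 0.236. Dhx58 and Irf9 were most alike (r = 0.967), and Parp14 and Slfn8 followed Ifit3 and Ifit3b (r = 0.931). Eif2ak2 and Oas3 ran most opposed (r = −0.876). These points share libraries, depth and base composition, and 27.0% of the pairs had an r below 0.

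Base composition moved with these values. The transcripts of the 50 genes had a GC content of 38.8 to 57.4%, with a median of 46.4%, against 49.8% for all genes kept. Over the 50, the log2 fold change with NACs correlated with GC content at r = −0.605 and that of untreated cells at 0.786, against −0.479 and 0.655 over all genes. The trend differed by library. Over all genes a library's deviations correlated with GC content at −0.467, −0.323 and −0.369 in HDAC3 KO with NACs, 0.405, −0.222 and 0.369 in WT with NACs, 0.129, 0.546 and 0.540 in untreated HDAC3 KO and −0.534, −0.582 and −0.402 in untreated WT. The 25 genes of lower GC content, among them Samd9l at 38.8% and Herc6 at 39.4%, all had a higher genotype difference with NACs than untreated, and 21 passed, with a median of 3.19. Of the 25 of higher GC content, where Oas3 is at 54.6%, Irf7 at 55.4%, Bst2 at 55.3% and Isg20 at 57.4%, 15 were above 0, 6 passed as higher and 4 as lower, with a median of 0.59. With the offset the medians were 2.00, with 12 genes called, and 0.72, with 7 genes called, all higher in both sets of 25, and the correlation with GC content was −0.477 over the 50 and −0.0893 over all genes. GC content was close to the same in genes with and without an ISRE core (45.7 and 45.8%), and the medians of the difference were 2.66 for the 22 with and 2.38 for the 18 without.

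**Figure D5:**
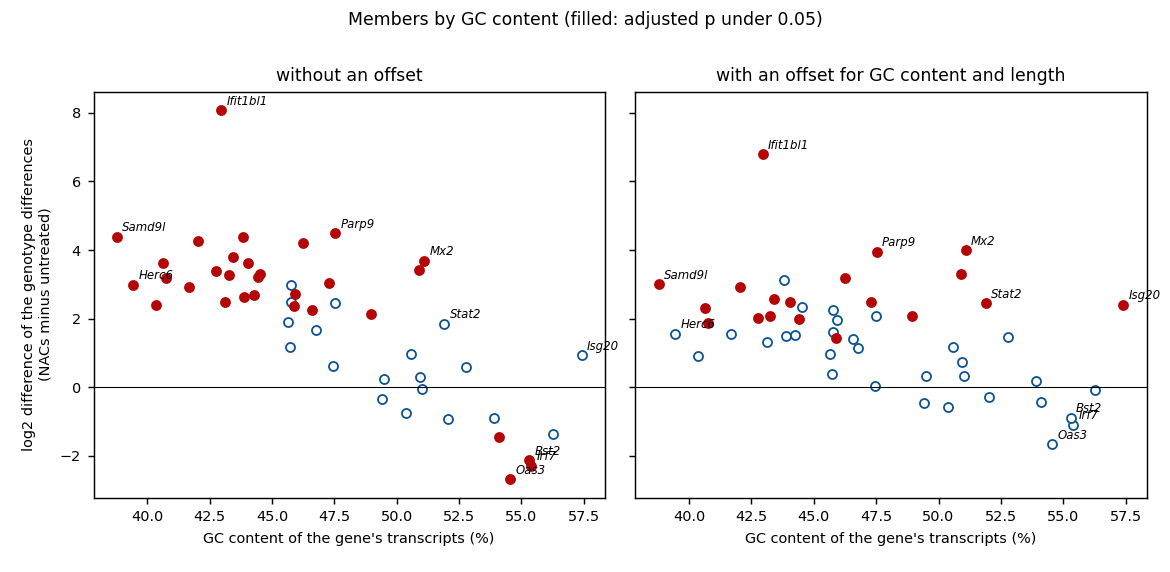
Each circle is 1 of the 50 genes, with the GC content of its transcripts on the x axis and, on the y axis, the log2 difference between the genotype differences with NACs and untreated. Left, without an offset, and right, after each library was given an offset for GC and length. Filled circles passed an adjusted p of 0.05, 31 on the left and 19 on the right.

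The other genes of the pathway were read from lists. Of 21 interferon ligand genes none had enough counts to be tested, and 16 were at 0 in every library. Ifnb1, the interferon beta gene, had 0 to 2 counts per library. Interferon released at an earlier time was not measured. Of 8 tested genes for receptors and their kinases, none passed with NACs, 2 fell untreated (Ifngr1 and Jak2), where 8.56% of all genes fell, and 5 had a higher genotype difference with NACs than untreated, where 22.1% of all genes did. Ifnar1, a receptor chain for type I interferon, was 72.3, 40.0 and 50.7 CPM in HDAC3 KO and 17.4, 31.3 and 17.9 CPM in WT libraries with NACs (log2 fold change 1.33, adjusted p = 0.0609, edgeR), and its difference was 2.87 (adjusted p = 0.00188, edgeR). Of 19 tested sensors, adaptors, kinases and IRFs, 1 rose with NACs, where 0.537% of all genes rose. It was Tlr7, an endosomal RNA receptor (log2 fold change 1.73, adjusted p = 0.0432, edgeR). Untreated, Aim2, Tbk1 and Tlr7 fell and Tmem173, which encodes STING, rose, where 11.6% of all genes passed and 8.56% fell. Of these 19, 6 had a higher and 4 a lower genotype difference with NACs than untreated, beside 34.8% of all genes that passed this test. None of the 14 negative regulators passed with genotype in any state, and 3 had a higher and 2 a lower difference with NACs, a share near the 34.8% of all genes. After the GC and length offset none of the receptor, kinase, sensor and regulator genes passed with NACs or untreated. With ACs Irf3 and the negative regulator Nlrx1 fell with the offset, where 10.6% of all genes passed. For the difference between NACs and untreated, 15.5% of all genes then passed. Of the receptor and kinase genes 4 were higher, and of the 19 genes 4 were higher and 1 lower. Of the 14 negative regulators 2 were higher, near the share of all genes.

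A further list of 76 interferon-stimulated genes, 75 of them in the files, was read in the same way. With NACs 5 of 71 tested genes rose in HDAC3 KO BMDMs and none fell, where 0.864% of all genes passed: Gbp5, Ifi203, Ifi211, Ifi213 and Irgm2. Untreated, 4 of 69 rose and 9 fell, where 11.6% of all genes passed, and with ACs 2 rose and 1 fell of 69, near the 3.75% of all genes. The genotype difference was higher with NACs than untreated for 25 of 71 and lower for 12, where 34.8% of all genes passed and 22.1% were higher, and the median was 1.05, against 0.12 over all genes. Under the GC and length offset none of these genes passed with NACs or untreated. With ACs 6 of 69 then rose and 3 fell, where 10.6% of all genes passed. The genotype difference with NACs against untreated was higher for 14 and lower for 1, Ube2l6, where 15.5% of all genes passed. Ifi213 had the largest change with NACs (log2 fold change 2.95, adjusted p = 0.0197, edgeR), and Ifi211, 50.4, 32.8 and 35.1 CPM in HDAC3 KO and 14.8, 19.8 and 9.45 CPM in WT libraries, rose by 1.46 (adjusted p = 0.0443, edgeR). These 2, with Ifi203, belong to the same IFI200 family as Ifi204 and Ifi207.

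Marker lists of macrophages and other cells were read beside the program. Among the 12 macrophage genes none passed with NACs. Untreated, Lyz2 and Mrc1 fell in the libraries labelled HDAC3 KO, where 8.56% of all genes fell. With ACs Ctss rose, where 3.75% of all genes passed. Under the GC and length offset none of the 12 passed with NACs or untreated (0.0084 and 0.0331% of all genes). With ACs Adgre1 and Ctss then rose and Mertk fell, where 10.6% of all genes passed. Of the tested B cell, T and natural killer cell, dendritic cell and plasmacytoid dendritic cell genes, none passed with genotype in any state. The same held for the fibroblast and erythroid genes. Of 11 tested granulocyte genes Elane fell with ACs, where 2.96% of all genes fell. In the test of the genotype difference with NACs against that untreated, which 34.8% of all genes passed, 5 of the 12 macrophage genes passed, with Itgam, Lyz2 and Mrc1 higher and Cd14 and Spi1 lower, and so did 3 of 5 tested B cell genes, all lower (Cd79a, Cd79b and Fcmr). Of the other lists, 1 dendritic cell gene (Batf3), 1 granulocyte gene (Ltf) and 1 fibroblast gene (Thy1) were lower there. Under the same GC and length offset Lyz2 and Mrc1 were the only genes of these marker lists that passed this test, both higher. Of all genes, 15.5% passed it with the offset. The summed B cell list was 2.00 to 5.28 CPM in HDAC3 KO and 6.28 to 20.8 CPM in WT libraries with NACs, and the part of these lists in the results was not tested.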

How the data were processed

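RNA-seq counts per gene were deposited by the authors, 1 table for each of 18 BMDM libraries, made from total RNA. Per the labels, reads were trimmed with Trimmomatic 0.36, aligned with STAR 2.5.2b to the mouse genome GRCm38 and counted with featureCounts of Subread 1.5.2. Reads of the human K562 cells could align to mouse genes, and whether counting used strand is not given in the sources used here.

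Genes were tested with edgeR 4.0.16 (R 4.3.3) on the deposited counts of the libraries compared: filterByExpr with a minimum count of 10, TMM scaling, robust quasi-likelihood fits, F tests and Benjamini-Hochberg adjustment over all genes tested, called under 0.05. SEs are the log2 fold change over the square root of F. Levels are CPM with TMM factors over the 18 libraries. Library totals of 4704491 to 26421267 counts limit the precision of low genes. Simulated counts were used to test the fits. The replicates are called biological replicates, and p-values measure only the spread between these libraries.

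Alternatives were DESeq2 1.42.0 size factors and its Wald test, library totals alone, no filter, 1 fit over all libraries, a replicate block, smooth GC and length offsets per library (mgcv 1.9.3, pseudocount 0.5 CPM) and leaving out each library. The named genes were a fixed set of members by role and, for each comparison, up to 10 that passed, by size, or the 3 highest and 3 lowest where fewer than 3 passed. The 50 names and the other lists were chosen with no threshold on a measured value, but with earlier results of these data known. The promoters are from RefSeq.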

Additional observations from a re-analysis of the deposited data

Results flagged for a closer look

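The test of whether genotype differences changed between states singled out 2 counts. Between ACs and NACs, 2 of the 50 genes differed in their genotype difference, where 0.0765% of all genes passed, Samd9l by −4.10 and Ifit1bl1 by −5.83 on the log2 scale. Between NACs and untreated, 31 of the 50 differed, where 34.8% of all genes passed. The 10 of them with the largest changes were Ifit1bl1 at 8.08, Parp9 at 4.49, Samd9l at 4.39, Trim30c at 4.37, Ifit2 at 4.26, Parp14 at 4.20, Ifi207 at 3.79, Mx2 at 3.68, Ifi204 at 3.63 and Slfn8 at 3.62, all higher with NACs (log2 difference, edgeR). Ifit1bl1 and Trim30c rest on few counts in several libraries. A test for a single sample far from its group was not made, because every group has 3 libraries.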

How the results depend on the processing

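The number of all genes that passed changed with the processing, with NACs from 103 to 1 under the GC and length offset. The share of all genes is not given beside the counts in this section. A change in the 50 therefore cannot be told apart from a change over all genes. The count of the 50 genes that passed changed as well, and the cause was not tested. The values are numbers of genes called. With the GC and length offset it was 4 for HDAC3 KO against WT with ACs, 0 with NACs and 0 untreated, 0 for NACs against untreated in both genotypes, 9 for the genotype difference between ACs and NACs and 19 between NACs and untreated. With library totals alone it was 7 with NACs, 18 untreated, 0 for NACs against untreated in WT, 20 in HDAC3 KO, and 1 for the difference between ACs and NACs. With no filter it was 27 with NACs, 1 for ACs against NACs in WT and 14 for the difference between ACs and NACs. In 1 fit over all 18 libraries it was 0 with NACs, 5 for ACs against NACs in HDAC3 KO, 0 for NACs against untreated in WT and 1 for the difference between ACs and NACs. The DESeq2 Wald test gave 19 untreated, 20 for NACs against untreated in HDAC3 KO and 18 for the difference between ACs and NACs, and DESeq2 size factors gave 0 for NACs against untreated in HDAC3 KO. Untreated, 1 of the 11 called genes was higher with TMM, 3 of 13 with DESeq2 size factors and 0 of 18 with library totals alone. Library totals alone put the median of all genes at 0.31 with NACs, −0.42 untreated and 0.70 for the difference between NACs and untreated, against −0.0031, 0.06 and 0.12 with TMM.

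With the replicate block it was 0 for NACs against untreated in HDAC3 KO and 11 for the difference between ACs and NACs, and with the replicate block and the GC and length offset together 0 with NACs, 0 untreated, 3 and 0 for NACs against untreated in WT and HDAC3 KO, 7 for the difference between ACs and NACs and 18 between NACs and untreated. In none of the 9 pairs of groups compared directly did every pair of same-numbered libraries correlate at over 0.1 in their deviations. These r ran from −0.493 to 0.559, so the numbers were not taken as a pairing. WT with ACs and HDAC3 KO with NACs, not compared directly, had every r over 0.1 (0.577, 0.224 and 0.333). Both groups enter the difference between ACs and NACs.

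Leaving out 1 library gave 0 to 7 with ACs, 0 to 35 with NACs, 0 to 26 untreated, 0 to 20 for ACs against NACs in HDAC3 KO, 1 to 34 and 0 to 28 for NACs against untreated in WT and HDAC3 KO, and 0 to 20 for the difference between ACs and NACs. Of 968 alternative fold changes for 64 called pairs of gene and comparison, up to 10 a comparison, 608 stayed under 0.05, 360 kept their direction and did not, and 0 reversed. In HDAC3 KO replicate 1 without cells, with 4704491 counts, low genes are measured least precisely.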
